A study of Mus musculus with 8 samples.

Results

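The glandular kallikreins are serine proteases encoded side by side on mouse chromosome 7, and 10 of them were followed here on arrays of dendritic cells with and without lipopolysaccharide (LPS): Klk1, Klk1b3, Klk1b4, Klk1b5, Klk1b8, Klk1b9, Klk1b11, Klk1b21, Klk1b22 and Klk1b24. They were listed by name and found on the arrays through the RefSeq accession of each probe, which gave 10 probes, 1 per gene, of 55681 probes outside the controls and 20887 genes matched. The genes were listed because earlier results of these data had shown members of the family to be much lower after LPS, so their differences between the groups are given as a description with no test. The probe letters were not in the files used here, and the genes are alike in sequence, so each value is that of a probe, and signal from a close relative on the same probe cannot be told apart from that of the named gene.

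The LPS-treated group held 4 samples of mature dendritic cells, made by adding LPS at 50 ng/ml overnight to immature dendritic cells and collected on day 7. The immature group held 4 samples of such cultures on day 6, before any LPS. Both groups were grown from monocytes of the bone marrow of C57BL/6 females (the labels also name bone marrow progenitor cells as the source) in medium with IL-4 and 10 ng/ml of GM-CSF, the growth factor that drives precursors toward dendritic cells. No cells kept to day 7 without LPS were analysed here, so LPS and the further night in culture cannot be told apart. The labels do not say whether the 4 replicates of a group were separate animals or cultures, and p-values measure the spread between these samples, which may be technical.

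Kallikreins of this family are made as inactive precursors, are secreted, and cut other proteins after basic residues. Klk1, the tissue kallikrein, is known for releasing kinins, short peptides that widen vessels and make them leak, from kininogens. Mice carry a large set of Klk1b copies that arose by duplication and are best known from the submandibular salivary gland, where some of them are bound to epidermal growth factor (EGF).

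Each array had 59305 spots outside the controls, of which 47.5% to 51.3% were well above background, and 0 spots were saturated. Levels are log2 signals relative to the 75th percentile of each array's probes, which lay between 337 and 407 intensity units before scaling. All arrays were on the same slide, with the LPS samples and the immature samples each in a slide row of their own per the file headers, so slide row and treatment cannot be told apart. Among bright probes the scaled median absolute deviation of the difference between 2 arrays was 0.0959 to 0.211 log2 for LPS pairs and 0.0810 to 0.331 for immature pairs, and the 3 largest immature values all involved replicate 3. Immature replicates 1 and 2 were the closest pair, at 0.0810, where 2 spots of a probe on the same array differed by 0.0420 to 0.0590. Those values do not show whether both arrays held separate samples, and they were counted as separate because the labels list them so. The dendritic cell marker genes Itgax, Flt3, Zbtb46, Ciita, H2-Aa, Cd74 and Ccr7 were well above background on all 8 arrays by their brightest probes, with 3 of them higher and 4 lower after LPS (Cd74, the brightest, by −0.49 log2).

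The sequence just before the start of these genes is part of what the family shares. In RefSeq (build GRCm38.p6) all 10 genes have a promoter window, 250 bases before the annotated start and 50 after. The 250 bases before the start of Klk1b11 (chr7:43995627-43995876, plus strand) are shown because the other windows were set against this gene's window, with a TATA-like box, TTTAAA, in capitals.
Klk1b11: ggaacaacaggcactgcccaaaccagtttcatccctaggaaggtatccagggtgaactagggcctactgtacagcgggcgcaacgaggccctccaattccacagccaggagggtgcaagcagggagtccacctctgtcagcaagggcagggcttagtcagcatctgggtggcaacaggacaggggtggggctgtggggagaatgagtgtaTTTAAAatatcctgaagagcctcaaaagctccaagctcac

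The stretch around the same box is shown for the EGF-binding kallikreins Klk1b9 (chr7:43975988-43976053) and Klk1b22 (chr7:44112593-44112658), for Klk1b3 (chr7:44198138-44198190), for Klk1b5 (chr7:44216392-44216457) and for Klk1b16 (chr7:44137211-44137276), a relative outside the 10, all on the plus strand, so that the flanks of the box can be compared. The stretches of Klk1b9 and Klk1b22 are the most alike, and that of Klk1b3 is cut at the annotated start.
Klk1b9: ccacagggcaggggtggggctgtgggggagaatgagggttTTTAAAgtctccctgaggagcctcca
Klk1b22: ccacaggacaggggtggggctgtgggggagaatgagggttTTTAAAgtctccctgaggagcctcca
Klk1b3: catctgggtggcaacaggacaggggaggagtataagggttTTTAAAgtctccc
Klk1b5: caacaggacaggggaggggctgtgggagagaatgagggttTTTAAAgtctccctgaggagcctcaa
Klk1b16: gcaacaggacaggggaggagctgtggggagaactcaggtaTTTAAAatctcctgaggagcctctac

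In a local alignment with the 300-base window of Klk1b11, the windows of the other 9 genes were 80.1% (Klk1b3) to 87.5% (Klk1b4) identical over 211 to 303 aligned columns. The window of Klk1 aligned over 211 columns at 81.0%. The windows of the Klk1b genes outside the 10 were 83.5% to 91.6% identical over 278 to 300 columns, whereas those of Klk4 to Klk15 aligned over 9 to 29 columns. The box TTTAAA, chosen after the sequences had been seen and identical on both strands, was present in the windows of 9 of the 10 genes, in 4 of 4 other Klk1b windows and in 0 of 14 windows of Klk4 to Klk15, against 13.2% of all 32851 promoter windows. For Klk1b21 the box lay after the annotated start, not in the 250 bases before it. The window of Klk1 was the exception among the 10. Its 250 bases before the start end within sequence that, in Klk1b5, lies upstream of the box. The window may end before the place of the box, so it does not show that Klk1 lacks one. Of other motifs searched on both strands, the spaced STAT element was found in 1 window of the 10 (Klk1b3) and in 6.95% of all windows. For the kappaB element only 1 fixed sequence, with no variable letters, was searched. That sequence was found in 0 of the 10 windows and in 0.155% of all windows. With a sequence this rare, 0 of 10 does not show that the windows lack other forms of a kappaB element. The PU.1 element GAGGAAGT and the AP-1 element TGANTCA were found in 0 of the 10 and in 3.20% and 7.81% of all windows. A match is a description of letters in this window and no site was measured.

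All 10 probes were well above background on all 8 arrays and all 10 were lower in the LPS-treated cells, by 15.7-fold (Klk1b5) to 47.6-fold (Klk1b9). The median log2 difference, LPS minus immature, was −4.94 over the 10 probes, against −0.01 over the 25941 probes tested. In limma's fit all 10 were called lower at an adjusted p under 0.05, as were 25.6% of all probes tested (49.3% were called in either direction and 23.8% higher). On all 10 the 4 LPS arrays lay below the 4 immature arrays, as on 23.7% of all probes tested, while 23.4% had all LPS arrays above. The members were chosen on this contrast, so nothing is read from these counts. Of all probes tested, 6161 were called higher and 6634 lower (48.2% of calls higher), a split that depended on the scaling, with 34.0% of calls higher under median scaling of the arrays and 31.0% with no scaling. Those scalings moved the median difference of all probes to −0.15 and −0.18. In bulk samples such as these, fewer cells that make a transcript and less of it per cell cannot be told apart.

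Klk1, the kinin-releasing tissue kallikrein, had processed signals of 83.8, 128, 154 and 163 intensity units on LPS arrays 1 to 4, against 2624, 2453, 3464 and 1976 on immature arrays 1 to 4. The weakest immature array was far above the strongest LPS array, and the groups did not overlap. Its level averaged −1.45 ± 0.45 after LPS and 2.71 ± 0.32 in immature cells (SD, n = 4 each), a log2 difference of −4.16 ± 0.24 (SE).

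**Figure D1:**
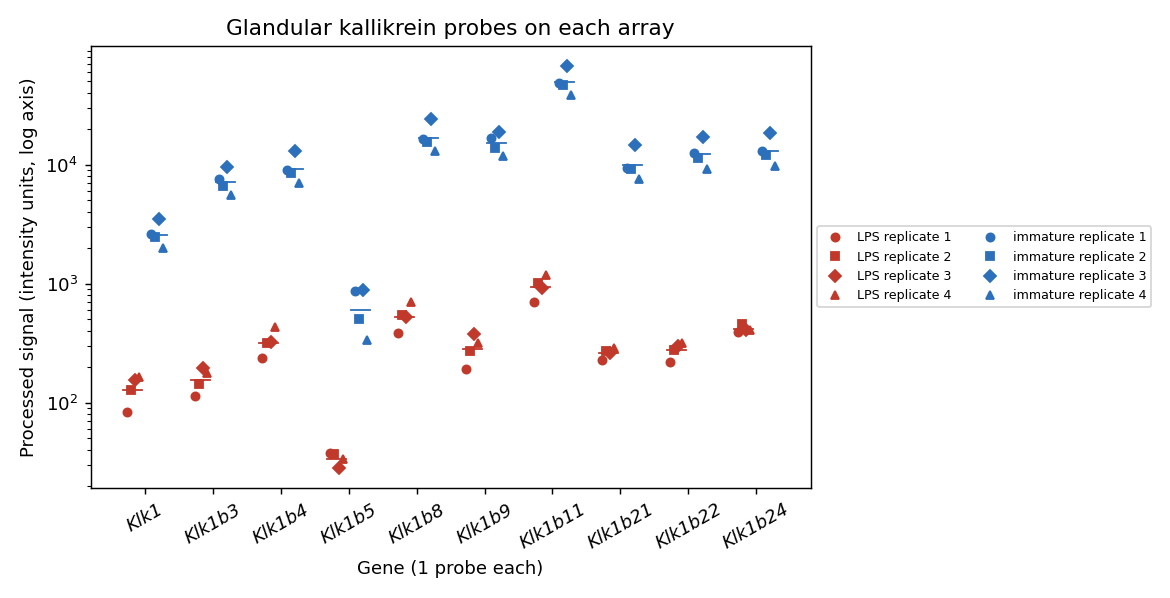
Processed signal of each of the 10 glandular kallikrein probes (vertical log axis, intensity units) on the 4 LPS arrays (red, left of each pair) and the 4 immature arrays (blue, right); each point is an array, its shape gives the replicate number, and the bars are geometric means. No LPS array reaches an immature array on any probe, and the 4 immature points keep replicate 3 at the top and replicate 4 at the bottom.

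Klk1b3 and Klk1b4 are relatives that differ in activity. Klk1b3, an active protease, had signals of 114, 142, 195 and 178 on the LPS arrays, against 7542, 6607, 9465 and 5509 on the immature arrays. Klk1b4, which has lost protease activity, had 238, 318, 322 and 428 on the LPS arrays, against 8981, 8483, 12867 and 7035 on the immature arrays. LPS array 1 was lowest for both genes and the groups stood apart. The log2 difference was −5.36 ± 0.21 (SE) for Klk1b3 and −4.66 ± 0.22 for Klk1b4.

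Klk1b9 and Klk1b22 encode kallikreins known to bind epidermal growth factor. Klk1b9 had signals of 190.5, 273, 379 and 315 on the LPS arrays, against 16601, 13840, 18709 and 11876 on the immature arrays. Klk1b22 had 218, 275, 299.7 and 317 on the LPS arrays, against 12400.3, 11326, 17052 and 9124 on the immature arrays. LPS array 1 was lowest and immature array 3 highest for both. Klk1b9 had the largest log2 difference of the 10, −5.57 ± 0.23 (SE), from levels of −0.32 ± 0.45 after LPS and 5.26 ± 0.27 in immature cells (SD, n = 4 each). Klk1b22 differed by −5.30 ± 0.20.

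Klk1b11, a family member with a less settled role, is printed on 10 spots of each array, and its signals averaged 699, 1013, 922 and 1179 on the LPS arrays, against 48080.3, 46503.5, 67187 and 38174 on the immature arrays. Its log2 difference was −5.54 ± 0.21 (SE). The repeat spots allow the spread within an array to be set beside the spread between arrays, which may also be technical. The SD between spots of an array was 0.0342 to 0.0569 log2, while the SD between arrays was 0.32 after LPS and 0.33 in immature cells. The spread between arrays of a group was thus larger than the spread between spots of an array.

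Klk1b8, Klk1b21 and Klk1b24 are further secreted proteases of the family. Klk1b8 had signals of 388, 545, 524 and 698 on the LPS arrays, against 16448, 15450.3, 23988 and 12922 on the immature arrays, a log2 difference of −4.82 ± 0.22 (SE). Klk1b21 had 229.6, 269, 262 and 288 on the LPS arrays, against 9424, 9126, 14628 and 7518 on the immature arrays, a log2 difference of −5.07 ± 0.19. Klk1b24 had 391, 458, 409.6 and 411 on the LPS arrays, against 13038, 12114, 18423 and 9647 on the immature arrays, a log2 difference of −4.79 ± 0.18. The LPS arrays lay close together for Klk1b21 and Klk1b24, with SDs of 0.15 and 0.13 log2, against 0.35 for Klk1b8.

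Klk1b5 stood at the small end of the differences. Its signals were 37.8, 37.0, 28.3 and 33.3 on the LPS arrays, against 860.2, 508, 875 and 335 on the immature arrays, a log2 difference of −3.97 ± 0.29 (SE). The LPS signals were near the low end of what the arrays call detected, and with the normexp background correction, which adds an offset of 50 units, the log2 difference of Klk1b5 was −2.53. Klk1b5 was also the most variable of the 10 in immature cells, with an SD of 0.64 log2.

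Within the immature group the 10 probes kept the same top and bottom arrays. Replicate 3 was the highest immature array for 10 of 10 probes and replicate 4 the lowest for 10 of 10. Among the 25940 tested probes with a value on all arrays, replicate 3 was highest on 35.7%, replicate 4 lowest on 20.3% and both held on 7.66%. The deviation of replicate 3 from the group mean ranged from 0.33 to 0.58 log2 and that of replicate 4 from −0.78 to −0.29. Klk1b5 supplied the −0.78, and the other 9 lay between −0.37 and −0.29. Klk1b5 differed from the rest in replicate 1 also, where it lay 0.47 above its mean while the other 9 lay between −0.12 and 0.09. Immature replicate 3 is the array that stands apart over the whole array, and without it the median log2 difference of the 10 probes was −4.76. The 10 differences ran from −5.46 to −3.78 without immature replicate 3 and from −5.67 to −4.23 without immature replicate 4.

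**Figure D2:**
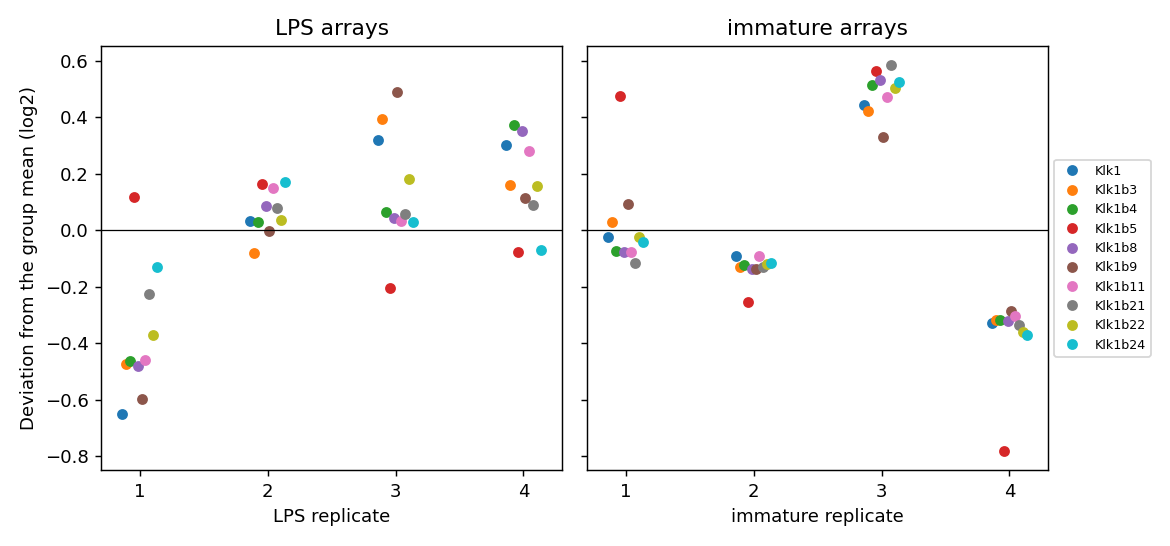
Deviation of each of the 10 glandular kallikrein probes from its group mean (vertical axis, log2) on the 4 LPS arrays (left panel) and the 4 immature arrays (right panel), 1 colour per gene. All 10 points lie above 0 in immature replicate 3 and below 0 in immature replicate 4, and 9 of 10 lie below 0 in LPS replicate 1.

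Within the LPS group, replicate 1 was the lowest array for 9 of 10 probes, against 19.9% of all probes tested, with deviations from −0.65 (Klk1) upward. Klk1b5 was again the exception, with replicate 3 lowest and replicate 1 0.12 above its mean. The highest LPS array was replicate 3 for 4 probes, replicate 4 for 4 and replicate 2 for 2, so the LPS arrays had no common top. The ratio of the highest to the lowest signal after scaling was 1.23 to 2.12 among LPS arrays and 1.53 to 2.54 among immature arrays. These ratios are small beside the gap between groups, where the lowest immature array exceeded the highest LPS array by 8.16-fold to 31.0-fold.

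The remaining genes of the kallikrein cluster were compared in the same fit. They are not independent of the 10, since the Klk1b genes among them are alike in sequence. Of 16 other kallikrein genes, all with a probe, 10 were tested, of which 7 fell, 1 rose and 2 did not pass, where 25.7% of all genes tested (by their brightest probe) were called lower and 28% higher. The median log2 difference was −2.29 over the 10 tested. The falls of Klk4, and in part of Klk15 and Klk1b16, rest on LPS signals not well above background. Where a bound is given below, the adjusted p is that of the fitted difference and not of the bound. Klk11, Klk13, Klk14, Klk6 and Klk7 were not well above background on any array.

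The Klk1b genes outside the 10 all fell on each of their tested probes. Klk1b16, known as gamma-renin, was measured on 2 of 4 LPS arrays. It fell by 3.84 ± 0.27 log2 (SE; limma adjusted p = 1.75e-05), and by 2.23 with normexp. Klk1b27 had signals of 370.1, 328, 309.7 and 220.4 on the LPS arrays, against 4939, 3537, 6012 and 3105 on the immature arrays, and fell by 3.65 ± 0.24 log2 (SE; limma adjusted p = 1.21e-05). Klk1b26, another EGF-binding kallikrein, fell by 3.62 ± 0.39 on its brighter probe and by 3.66 ± 0.27 on its dimmer one (limma adjusted p = 0.000150 and 2.36e-05). Klk1b1 fell by 2.41 ± 0.35 (limma adjusted p = 0.000715). On all 5 of these probes immature replicate 3 was the highest immature array, as on 35.7% of all probes tested. The pseudogene Klk1b7-ps was not tested, being above background on 3 of 4 immature arrays and 0 of 4 LPS arrays.

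Among the more distant relatives, Klk15, next to the Klk1b genes in the order of the chromosome, was measured on 1 of 4 LPS arrays and was at least 4.58-fold lower (limma adjusted p = 0.000615). The log2 difference of Klk15 in the fit was −3.79 and was −4.41 without LPS replicate 4, the array that measured it. Klk4, the enamel protease, was not well above background on any LPS array and was at least 1.47-fold lower. Its limma adjusted p of 0.00144 is that of the fitted log2 difference, −2.18, which rests on LPS signals at the floor. Klk8, known as neuropsin, had 89.1, 69.99, 47.6 and 34.7 units on the LPS arrays, against 285, 221, 183 and 158 on the immature arrays, and fell by 1.70 ± 0.30 log2 (SE; limma adjusted p = 0.00192). Klk9 rose by 0.21 ± 0.07 (limma adjusted p = 0.0416), with signals of 32.3 to 34.6 on the LPS arrays and 30.2 to 34.7 on the immature arrays. That call was kept without LPS replicate 1 (limma adjusted p = 0.0496), but was lost without any 1 of LPS replicates 2 to 4 or of the immature replicates (adjusted p up to 0.105) and with scaling to the array median (0.536). Klk10 and Klk12 did not pass, at 0.27 ± 0.12 and −0.07 ± 0.12.

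**Figure D3:**
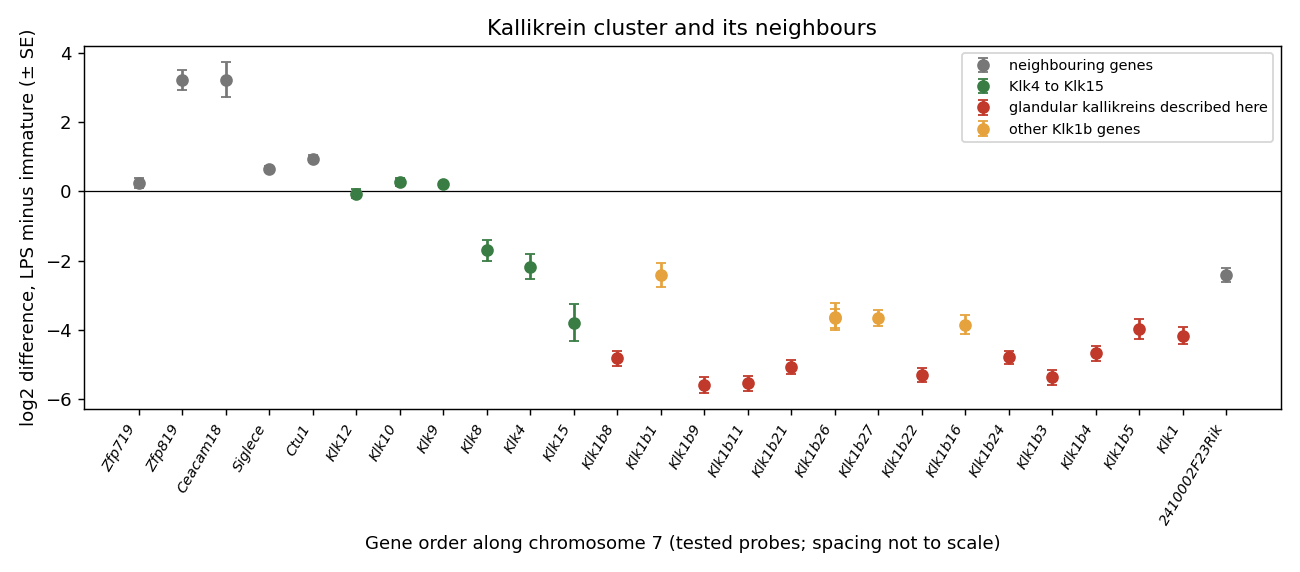
Log2 difference, LPS minus immature, with its standard error (vertical axis) for each tested probe of the kallikrein cluster and its neighbours. Genes are in the order of their annotated gene starts along chromosome 7 (horizontal axis, spacing not to scale). Klk1b21 is therefore drawn before Klk1b26 and Klk1b27, although its promoter window lies after theirs. Among the kallikreins the points run from near 0 at Klk12, Klk10 and Klk9 to between −3.97 and −5.57 for the 10 glandular kallikreins (red). The other Klk1b genes (orange) lie between −2.41 and −3.84. The neighbouring genes (grey) lie between −2.41 and 3.22. Values of probes not above background on LPS arrays (Klk4, and on some arrays Klk15 and Klk1b16) rest on signals at the floor. That of Ceacam18 rests on immature signals at the floor.

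The protein-coding genes on each side of the cluster did not share one direction. Of 10 neighbours, 5 per side, 7 had a probe and 6 were tested, of which 4 rose, 1 fell and 1 did not pass, with a median of 0.80. The 1 that fell was the 1 tested gene on the side of Klk1, and no tested gene beyond Klk14 fell. Of all genes tested, 25.7% were called lower and 28% higher. Beyond Klk14, Zfp819, a zinc finger gene, rose by 3.21 ± 0.29 log2 (SE; limma adjusted p = 5.94e-05), Ceacam18 was at least 3.80-fold higher (0.000975) and Ctu1, a tRNA-modifying enzyme, rose by 0.94 ± 0.11 (0.000207). On the side of Klk1, 2410002F23Rik fell by 2.41 ± 0.20 (limma adjusted p = 4.20e-05), and Acp4 was not well above background on any array.

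The kinin system, which Klk1 feeds, was detected in part. Of 18 genes, all with a probe, 9 were tested, of which 1 rose, 3 fell and 5 did not pass, with a median of −0.08. The kininogen genes Kng1 and Kng2, which encode the substrates, and the kinin receptor genes Bdkrb1 and Bdkrb2 were not well above background on any of the 8 arrays. Of the enzymes that trim or degrade kinins, Cpd, carboxypeptidase D, rose by 0.52 ± 0.11 log2 on its brighter probe (SE; limma adjusted p = 0.00451; the dimmer had 0.31 and did not pass, adjusted p = 0.210), and Ace, the angiotensin-converting enzyme, fell by 0.82 ± 0.12 (0.000844). Xpnpep2 and Cpb2, dim peptidase genes seen above background on immature arrays and on no LPS array, were at least 1.26-fold and 1.07-fold lower (limma adjusted p = 0.00414 and 0.0253). The normexp correction ended both calls, with −0.16 for Xpnpep2 and 0.09 for Cpb2, and that of Cpb2 was also lost without LPS replicate 1 or 2 (adjusted p = 0.0674 and 0.0585).

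Inhibitors of serine proteases were tested for 6 of 16 genes, of which 2 rose, 3 fell and 1 did not pass, with a median of −0.29. Slpi, the secretory leukocyte protease inhibitor, rose by 1.94 ± 0.21 log2 (SE; limma adjusted p = 0.000147), with levels of 7.12 ± 0.44 after LPS and 5.19 ± 0.15 in immature cells (SD, n = 4 each). Serping1, the inhibitor of C1 and plasma kallikrein, was measured on 1 of 4 immature arrays and was at least 2.16-fold higher (limma adjusted p = 0.00336). Spint1, a Kunitz-type inhibitor, fell by 0.56 ± 0.16 (limma adjusted p = 0.0174), a call lost with the replicate number as a block (0.0503) and with replicates 1 and 2 of each group averaged (0.107). Pzp was at least 1.51-fold lower (limma adjusted p = 0.00117). Serpina3f fell by 1.53 ± 0.55 (limma adjusted p = 0.0474), a call lost without any 1 of LPS replicates 1 to 4 or of immature replicates 1, 2 and 4 (adjusted p = 0.0789 to 0.116) and kept without immature replicate 3 (limma adjusted p = 0.000833). Serpina3c, the kallikrein-binding protein, was not among the genes tested.

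Of 11 growth factor and partner genes 6 were tested, of which 3 rose, 2 fell and 1 did not pass, with a median of 0.57. Egf and its receptor gene Egfr rose by 0.92 ± 0.13 and 0.97 ± 0.20 log2 (SE; limma adjusted p = 0.000620 and 0.00449), for Egfr on its brightest probe. A dimmer Egfr probe had 0.40 and did not pass (limma adjusted p = 0.0870), and another, at 0.23, was not tested. F2r, the thrombin receptor, fell by 1.95 ± 0.47 (limma adjusted p = 0.00864), a call lost, at the threshold itself, with replicates 1 and 2 of each group averaged. Sort1 fell by 0.85 ± 0.18 on its brightest probe (limma adjusted p = 0.00549), while its other 2 probes had 0.05 and 0.24 and did not pass.

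Serine proteases stored in leukocyte granules, another branch of the same enzyme fold, had 6 of 7 tested genes falling and 1 not passing. Their median was −1.64, and 25.7% of all genes tested were called lower. Ctsg, cathepsin G, fell by 3.91 ± 0.49 log2 (SE; limma adjusted p = 0.000345) and Mcpt8, a basophil protease, by 2.17 ± 0.41 (0.00264). Prtn3, proteinase 3, measured on 3 of 4 LPS arrays, fell by 3.03 ± 0.55 (limma adjusted p = 0.00224), and by 2.18 with normexp.

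Markers of other cell types that such a culture could hold are given beside the kallikreins. Of 6 neutrophil markers tested all 6 fell, by −4.69 to −0.84 log2 (S100a9, the brightest, by −0.84), as did 25.7% of all genes tested. The summed signal of the neutrophil markers, relative to the 75th percentile, was 284 to 524 on the LPS arrays and 884 to 1031 on the immature arrays. Of 5 mast cell and basophil markers tested 2 rose (Hdc, the brightest, by 3.11 log2) and 3 fell, with summed signals of 29.1 to 74.4 on the LPS arrays and 8.51 to 12.9 on the immature arrays, a sum that Hdc dominated on the LPS arrays. Of 6 macrophage markers tested 1 rose, 2 fell and 3 did not pass, with summed signals of 384 to 454 on the LPS arrays and 406 to 474 on the immature arrays. Csf1r, the brightest macrophage marker, had −0.17 on its brightest probe, which did not pass (limma adjusted p = 0.130) but did with median scaling of the arrays (0.0309) and with no scaling (0.0180), and its other 2 probes fell by 0.40 and 0.38 (0.0181 and 0.0122). In the list of salivary gland and other glandular epithelium, the salivary genes Amy1, Prol1 and Smgc were not well above background on any array. The same held for Aqp5 and Krt19. Epcam was well above background on 3 of 4 immature arrays, Krt18 on 2 and Krt8 on 1, and each on 0 of 4 LPS arrays. These 3 genes were therefore not tested. Cdh1 was the 1 gene tested, falling by 3.51 ± 0.39 (limma adjusted p = 0.000173). The summed signal of the list was 0.566 to 0.929 on the LPS arrays and 2.69 to 8.89 on the immature arrays. Most of it came from Cdh1 on every array. The part of the neutrophil and other cell markers in the kallikrein differences was not tested.

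**Figure D4:**
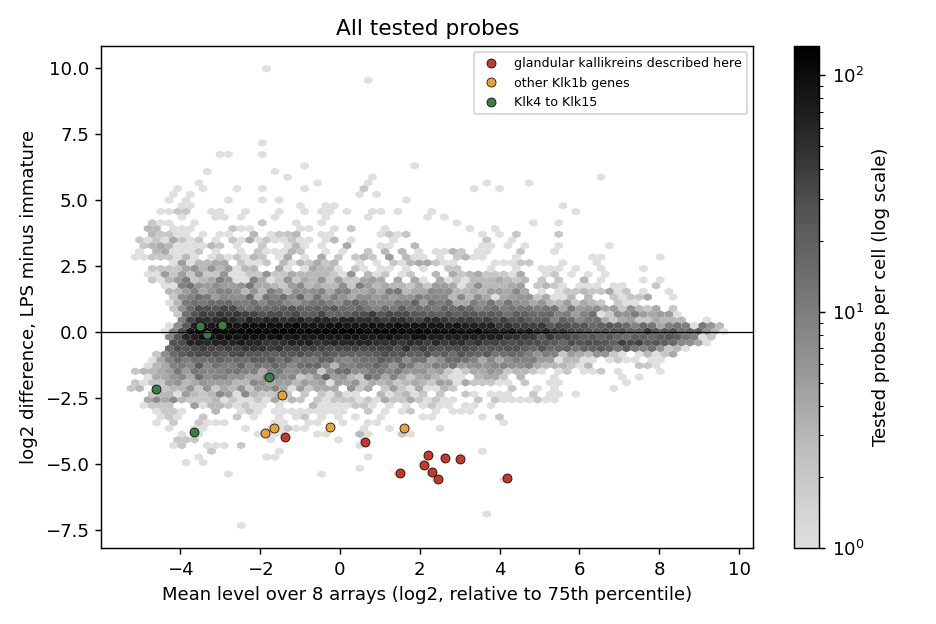
Log2 difference, LPS minus immature (vertical axis), against the mean level over the 8 arrays (horizontal axis, log2 relative to the 75th percentile) for all 25941 tested probes (grey, darker where more probes fall) with the kallikreins marked. The 10 glandular kallikreins (red) lie at −3.97 to −5.57, the contrast they were chosen on, and the body of the probes lies around a median of −0.01.

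To find genes with a similar pattern, each probe was centred over the 8 arrays and set against the mean profile of the 10 kallikrein probes. The root mean square difference of the 10 from their own mean profile was 0.107 (Klk1b8) to 0.574 (Klk1b5) log2. The 6 nearest genes outside the lists were Rhpn1 (0.384), Skint3 (0.413), Slc8a2 (0.414), Ehf (0.442), Ctnnd2 (0.462) and Cyp2s1 (0.483). Rhpn1, Slc8a2, Ehf and Ctnnd2 were not well above background on any LPS array, so their LPS values lay at the floor. Skint3 and Cyp2s1 were measured on all LPS arrays, with log2 differences of −4.40 ± 0.27 and −5.19 ± 0.28 (SE), given as descriptions since the pattern chose them. The measure is dominated by the gap between the groups, and Klk1b16 lay at 0.569 and both Klk1b26 probes and Klk1b27 at 0.722 to 0.837.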

How the data were processed

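RNA of 8 samples was measured on Agilent arrays, 1 colour (Cy3), 1 array per sample. Per the file headers the authors' files come from Agilent Feature Extraction 11.0.1.1. The deposited processed signal is an intensity with background subtracted and spatial trends removed, not scaled between arrays, and the deposited flags, other columns of 0 or 1, mark spots well above background, saturated or outlying.

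Outlier spots (122 to 206 per array) were left out, the log2 signals of a probe's spots were averaged, and the 75th percentile over probes was subtracted. Probes were kept apart and named through RefSeq accessions (27509 of 55681 matched 1 symbol). Probes entered the test if either group had them well above background in all 4 of its samples. LPS was compared with immature by lmFit and eBayes (limma 3.58.1, R 4.3.3), two-sided, with Benjamini-Hochberg adjustment over all probes tested, and called at 0.05. The fit was tested on simulated data. Where a fold is given as a bound, a dim spot counts as no less than the faintest probe that its array detected. The adjusted p printed with a bound belongs to the fitted difference, not to the bound. Prtn3 and Klk1b16 had dim spots above that level, so no bound is given for them. Lists are counted by each gene's brightest probe, by which 25.7% of all genes tested were called lower and 28% higher.

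The members and lists were chosen with earlier results of these data known. All probes of the members were named, the 3 called genes with the largest change in each direction from each other list, the brightest gene of each marker list and the 6 genes nearest in pattern. The remaining kallikreins, Serpina3c, Acp4, the kinin receptors and the kininogens were named after their values were seen. So were the glandular, mast cell and basophil markers other than Cdh1 and Hdc. Some genes of the growth factor list are not reported here by name. Alternatives were another scaling, background correction, dim-probe filter, 1 probe per gene, a replicate block and leaving out each array. Promoters were aligned with Biopython 1.88.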

Additional observations from a re-analysis of the deposited data

Results flagged for a closer look

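In groups of 4 arrays, the gap of the highest or lowest array to its nearest neighbour, as a share of the group's range, was looked at in 80 groups for the glandular kallikreins and the other named genes. It exceeded Dixon's 95% critical value in 5 groups, where chance flags about 1 in 20. Among the 10 kallikreins this was seen for Klk1b21, where LPS replicate 1 was lowest (0.906), at −0.65 against −0.36 to −0.33 on the other LPS arrays. For Klk15, LPS replicate 4 was highest (0.872), at −3.68 against −6.27 to −5.94. For Mcpt8, immature replicate 4 was highest (0.878), at 2.11 against 0.99 to 1.13. For Cdh1, LPS replicate 3 was highest (0.923), at −0.44 against −1.29 to −1.23. For Ceacam18, LPS replicate 3 was lowest (0.944), at −3.27 against −2.38 to −2.32.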

How the results depend on the processing

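The median log2 difference of the 10 kallikrein probes ranged from −5.05 to −4.76 when 1 array was left out, and was −5.08 with scaling to the array median, −5.11 with no scaling and −4.69 with normexp. Of 180 values of single probes under alternatives, 0 changed sign, which leaving out an array could not do since the groups did not overlap. Of these values 5 moved by more than the spread between replicates, all 5 with normexp: Klk1 (−3.61), Klk1b3 (−4.92), Klk1b5 (−2.53), Klk1b9 (−5.17) and Klk1b21 (−4.71). The number of probes called was 12795, against 24674 with no filter on dim probes (17961 higher, 72.8% of calls) and 6994 with 1 probe per gene (3656 higher, 3338 lower), which test other numbers of probes. With no scaling 4088 were called higher. The labels do not say whether the replicate numbers pair the samples, and the correlations of the deviations between arrays do not settle it. For replicates 1 and 2 the same-numbered arrays had 0.225 and 0.110, above the highest with another number (0.0857 and 0.0770). For replicates 3 and 4 they had 0.0993 and −0.00451, below it (0.269 and 0.0676). With the replicate number as a block 12016 probes were called and the median of the 10 was −4.94, and the calls of Klk9, Serpina3f and Spint1 were lost (adjusted p = 0.0971, 0.0613 and 0.0503). With replicates 1 and 2 of each group averaged, an alternative chosen after seeing the data, 9521 were called, the median was −4.95, and the calls of F2r (at the threshold itself), Cpb2, Klk9, Serpina3f and Spint1 were lost (the last 4 with adjusted p = 0.0568, 0.108, 0.186 and 0.107). With normexp, whose offset raises dim signals, the log2 differences of Klk1b16 (−2.23), Klk15 (−1.19), Ceacam18 (0.95), F2r (−1.09), Prtn3 (−2.18), Ctsg (−3.28), Serpina3f (−0.88), Pzp (−0.35) and Serping1 (0.49) were smaller with their calls kept. Cpb2 changed sign with normexp (0.0859), and the cause was not tested. The number of arrays limits the precision, and dim probes near the floor give bounds.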
